A study of Mus musculus with 45 samples.

Results

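Expression of 7 genes of the molecular clock, Arntl, Clock, Npas2, Cry1, Cry2, Nfil3 and Rora, was followed in liver, kidney and brain of mice on 5 diets. They are the activator genes of the clock together with genes grouped with them as opposite-phase partners, a name that belongs to the choice of genes and was not tested. In liver and kidney Cry1 and Cry2 had their highest group mean on the diet where Arntl had its lowest. With all arrays in the fit, no difference of Cry1 or Cry2 from Control on that diet passed the test used below. In brain Cry1 had its lowest group mean on the same diet as Arntl. The 7 genes were taken by name from a table of 22080 genes, which held all 7. The values come from 45 Affymetrix Mouse Gene ST v1.0 arrays, 15 a tissue, and the probe sets kept for the 7 genes were 10556463 (Arntl), 10530733 (Clock), 10345675 (Npas2), 10371400 (Cry1), 10485170 (Cry2), 10409278 (Nfil3) and 10586700 (Rora). All mice were male C57BL/6 of 7 weeks, kept on a light-dark cycle, and the 5 groups of 8 received the AIN-93 diet alone (Control), that diet with 0.5% cholesterol (HCD), or HCD with 1% of the Ganoderma lucidum extract Gl-1 (HCD+Gl-1), 1% of the extract Gl-2, from mushrooms grown with 10 mM acetylsalicylic acid (HCD+Gl-2), or simvastatin at 0.03 g per 100 g of diet (HCD+Sim). Tissues were taken on day 43, after 8 h without food and water. The hour of sacrifice of each group and the part of the brain that was taken are not given in the sources used here, so the diet and the hour of sampling cannot be told apart from these data alone. Each group of a tissue had 3 arrays: RNA of 4 mice went into pool A, RNA of the remaining 4 into pool B, and pool C mixed both, so that the 3 arrays rest on 2 separate pools and p-values measure the spread between arrays that share mice.

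In the mammalian clock the protein of Arntl (BMAL1) pairs with that of Clock or of its paralog Npas2, and the pair activates genes through E-box elements. Among these genes are the period (Per1, Per2, Per3) and cryptochrome (Cry1, Cry2) genes, whose proteins inhibit the pair, and Nr1d1 and Nr1d2, whose REV-ERB proteins repress Arntl, Npas2, Cry1, Clock and Nfil3 through RORE elements. Rora encodes a nuclear receptor that activates at the same elements. NFIL3 represses at D-box elements, where the PAR bZIP proteins of Dbp, Tef and Hlf activate. Over a day, Arntl and Npas2 transcripts in liver and kidney therefore peak when the period genes and Dbp are low, while in brain Npas2 is known mainly from the forebrain.

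The elements named above were looked for in the RefSeq promoter windows of the 7 genes (mouse build GRCm38.p6, windows of 300 bases of which 250 precede the transcript start), of which there were 10, with at least 1 for every gene. Searched on both strands, the E-box CACGTG was present in 1 of the 10 windows and in 7.15% of all 32817 windows, the E'-box CACGTT in 2 and in 4.69%, the RORE core TAGGTCA in 2 and in 2.61%, its variant TAGGTTA in 2 (both Arntl) and in 1.44%, and the D-box TTANGNAA in 1 and in 11.5%. The 2 Arntl windows overlap, and their TAGGTTA is the same stretch (site 1 below), counted in each window. Within a window no match overlapped another. Of 11 windows of the repressor and PAR bZIP genes described further on, 5 held CACGTG and none held TAGGTCA. The following are shown for Arntl and Npas2, which fell in liver and kidney, and for Cry1 and Nfil3. With all arrays in the fit no diet difference of Cry1 passed the test, and none of Nfil3 did in liver. Sequences are given 5′ to 3′ on the gene's strand, with the match in capitals, and a match is a description of the letters and not evidence of binding.
Arntl promoter, chr7:113207215-113207464 (+ strand): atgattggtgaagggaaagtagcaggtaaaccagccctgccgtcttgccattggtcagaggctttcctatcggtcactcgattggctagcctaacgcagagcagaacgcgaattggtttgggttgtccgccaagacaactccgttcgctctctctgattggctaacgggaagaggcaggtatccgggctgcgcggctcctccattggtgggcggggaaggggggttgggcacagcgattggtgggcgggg
Arntl site 1, chr7:113207498-113207518 (+ strand): cggaaagTAGGTTAgtggtgc
Arntl site 2, chr7:113207534-113207554 (+ strand): cagaaagTAGGTCAgggacgg
Npas2 promoter, chr1:39194022-39194271 (+ strand): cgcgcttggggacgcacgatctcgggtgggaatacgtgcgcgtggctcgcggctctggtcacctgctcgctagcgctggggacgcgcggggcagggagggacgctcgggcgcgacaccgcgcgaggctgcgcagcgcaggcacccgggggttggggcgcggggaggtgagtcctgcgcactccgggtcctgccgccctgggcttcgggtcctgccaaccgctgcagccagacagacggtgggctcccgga
Cry1 promoter, chr10:85185055-85185304 (- strand): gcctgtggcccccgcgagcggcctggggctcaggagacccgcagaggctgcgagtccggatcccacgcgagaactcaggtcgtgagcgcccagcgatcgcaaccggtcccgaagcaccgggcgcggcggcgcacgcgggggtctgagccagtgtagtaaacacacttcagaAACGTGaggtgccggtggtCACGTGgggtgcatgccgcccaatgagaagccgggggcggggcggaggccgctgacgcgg
Nfil3 site, chr13:52981038-52981058 (- strand): tcggaacTGACCTActaacac
The Npas2 window and the first 250 bases of the Arntl window held none of the 5 motifs. Sites 1 and 2 of Arntl lie at the second annotated start, with the TAGGTTA beginning at position -6 from it and the TAGGTCA at base 31 of the transcript. In Cry1 the CACGTG began at -60 and an E'-box read on the other strand at -79, and in Nfil3 the reverse complement of TAGGTCA began at -12.

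Array medians lay between 6.76 and 6.92, and a gene's SD over the 3 arrays of a group had a median of 0.113 (liver), 0.0818 (kidney) and 0.0932 (brain). The 8 hepatocyte markers had a mean log2 level of 13.13 to 13.31 on liver arrays and at most 7.51 on all others, the 8 tubule markers 11.99 to 12.14 on kidney arrays and the 8 neuron and glia markers 11.34 to 11.53 on brain arrays. Brain Control departed most from its labels. There array C lay outside the range of A and B by over 0.2 on the log2 scale for 20.9% of all genes. The share was 19.7% in liver HCD+Sim and 18.8% in liver HCD+Gl-1. Brain Control arrays A, B and C had a mean log2 level of 9.76, 10.29 and 6.51 over 8 cerebellum markers and of 8.48, 7.84 and 9.53 over 10 striatum markers, although C is a mix of A and B and should lie between them. The called differences of Npas2 and Arntl that use brain Control are therefore given with and without array C. In liver, HCD+Gl-1 array C read outside its pools A and B by 0.42 for Clock and by 0.58 for Cry2. Liver HCD+Sim arrays A and B held pancreas acinar markers at a mean log2 level of 7.44 and 7.90, against 6.50 on array C and 6.17 to 6.41 on the other 12 liver arrays. The 8 skeletal muscle markers had a mean log2 level of 6.87 to 7.14 in liver Control, of 6.44 to 6.70 in HCD, 6.30 to 6.50 in HCD+Gl-1 and 6.40 to 6.66 in HCD+Gl-2, where 1, 2 and 2 of the 8 were DE and lower than in Control, and of 6.61 to 7.89 in HCD+Sim.

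**Figure D1:**
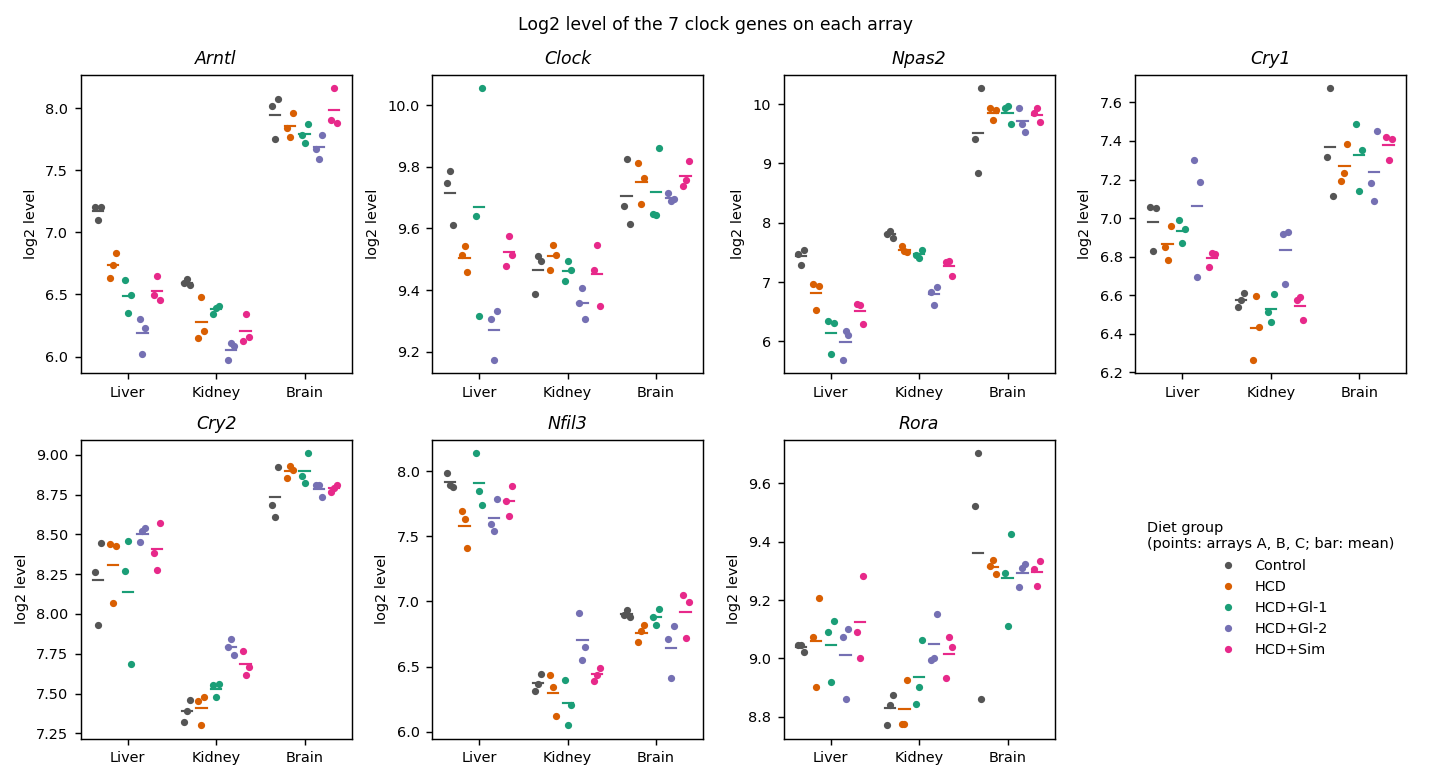
Log2 level (vertical axis) of each of the 7 genes on the 45 arrays, by tissue (horizontal axis) and diet group (colour), with a point for each array and a bar for the group mean. In liver the 3 Control arrays of Arntl, at 7.10 to 7.21, and of Npas2, at 7.29 to 7.55, lie above all arrays of the 4 other diets.

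Arntl, whose protein pairs with CLOCK or NPAS2, was lower in liver on every diet that contained cholesterol. On the log2 scale the Control arrays A, B and C read 7.21, 7.10 and 7.21. The HCD arrays read 6.63, 6.74 and 6.84, and the HCD+Sim arrays 6.49, 6.65 and 6.46. Under the extracts they read 6.62, 6.35 and 6.49 with Gl-1 and 6.30, 6.02 and 6.23 with Gl-2. Every Control array was above every array of the 4 other groups, and every HCD+Gl-2 array was below those of the 3 remaining diets. The skeletal muscle markers were likewise higher in liver Control than in HCD and both extract groups, while under HCD+Sim 7 of the 8 had a positive log2 difference from Control and none was DE. The part of these markers in the liver values of Arntl and Npas2 was not tested. Against Control, Arntl fell under HCD+Gl-2, by 0.99 on the log2 scale (SE 0.09, limma's adjusted p 4.06e-09), which is a 1.98-fold lower level. This was the one diet comparison within a tissue in which Arntl was DE, a term kept here for differences of more than 0.7 on the log2 scale whose p, adjusted over all genes, did not exceed 0.05. The other differences from Control passed the adjusted p but not the fold threshold: -0.44 for HCD (adjusted p 0.00695), -0.68 for HCD+Gl-1 (1.52e-05) and -0.64 for HCD+Sim (2.66e-05, all limma). With each array left out in turn the HCD+Gl-2 value lay between -1.04 and -0.91 and stayed DE, while the HCD value had an adjusted p of 0.0744 without HCD array A, of 0.0959 with the liver arrays alone and of 0.0646 with pools A and B alone. Arntl was also lower under HCD+Gl-2 than under HCD, by 0.55 on the log2 scale (adjusted p 0.000419), which did not pass with only the 6 arrays compared in the fit (adjusted p 0.153). Gl-2 against Gl-1 gave -0.30 (95% interval -0.49 to -0.11, adjusted p 0.0584), with an adjusted p of 0.0125 without HCD+Gl-1 array B and of 0.0429 without HCD+Gl-2 array A.

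Npas2, which can take the place of CLOCK beside BMAL1, was also lower in liver on the cholesterol diets, though against Control it passed the test only in the 3 treated groups. Its Control arrays A, B and C read 7.47, 7.29 and 7.55. On HCD they read 6.96, 6.54 and 6.93, with Gl-1 6.34, 5.79 and 6.30, with Gl-2 5.69, 6.18 and 6.10, and with simvastatin 6.63, 6.61 and 6.30. Again no array of the 4 cholesterol groups reached the Control arrays, and the arrays of the 2 extract groups, which overlapped each other, all lay below those of HCD. Against Control it fell under HCD+Gl-1 (log2 difference -1.29, SE 0.19, adjusted p 3.79e-05), HCD+Gl-2 (-1.44, adjusted p 2.49e-06) and HCD+Sim (-0.92, adjusted p 0.00379), the 2 extract values being 2.44-fold and 2.72-fold lower levels. These 3 differences stayed DE with each array left out, at -1.39 to -1.11, -1.54 to -1.29 and -0.99 to -0.81. The difference between HCD and Control was -0.62 (adjusted p 0.101). Its adjusted p was 0.183 with the liver arrays alone in the fit, and 0.016 with those of liver and kidney, so whether it passed the adjusted p depended on which tissues shared the estimate of the spread. Against HCD it was lower by 0.82 under Gl-2 (adjusted p 0.0123) and by 0.66 under Gl-1 (adjusted p 0.0477), of which the first was DE. That call was lost without HCD array A, HCD array C or HCD+Gl-2 array A (-0.96 to -0.67 over the arrays left out), and the adjusted p was 0.0518 with the liver arrays alone. The Gl-1 difference passed the adjusted p without HCD array B (0.0405) and with none of the other 5 arrays left out (range -0.80 to -0.49, with an adjusted p of at most 0.166). Between the extracts the difference was -0.16 (95% interval -0.54 to 0.23), and against HCD simvastatin differed by -0.30 (adjusted p 0.583, 95% interval -0.68 to 0.09).

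Clock, whose protein is the usual partner of BMAL1, had smaller differences, none of them DE. In liver the Control arrays read 9.75, 9.79 and 9.61 and the HCD+Gl-2 arrays 9.31, 9.17 and 9.33, so the groups did not overlap. The difference was -0.45 (SE 0.10, adjusted p 0.00419), short of the fold threshold. Its adjusted p stayed at 0.0376 or lower with each array left out, but was 0.175 with the liver arrays alone in the fit. HCD+Gl-2 also lay below HCD+Gl-1 (-0.40, adjusted p 0.0152), but this rested on HCD+Gl-1 array C at 10.06, since without it the value was -0.21 (adjusted p 0.288). The adjusted p was also 0.0719 without HCD+Gl-2 array B and 0.262 with the liver arrays alone. In kidney and brain its group means stayed within 9.36 to 9.51 and 9.70 to 9.77.

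The cryptochrome genes, whose proteins inhibit the BMAL1 pair, passed the test in no diet comparison of liver with all arrays in the fit. Cry1 group means ran from 6.79 ± 0.04 (SD, n = 3 arrays) in HCD+Sim to 7.06 ± 0.32 in HCD+Gl-2, and the log2 fold changes against Control lay between -0.19 and 0.08 with adjusted p of 0.589 or more. Cry2 in liver ran from 8.14 ± 0.40 in HCD+Gl-1 to 8.50 ± 0.05 in HCD+Gl-2. All 3 HCD+Gl-2 arrays of Cry2 (8.45, 8.52 and 8.54) were above the Control arrays (8.26, 7.93 and 8.45), with a log2 fold change of 0.29 that did not pass the test (adjusted p 0.239). Between the extracts, Cry2 was higher in HCD+Gl-2 than in HCD+Gl-1 by 0.36, which did not pass the test (limma, adjusted p 0.077). With each array left out this difference ran from 0.14 to 0.52, with an adjusted p of up to 0.657. It passed the adjusted p without HCD+Gl-1 array B (0.52, adjusted p 0.0038). For Cry1, HCD+Gl-2 against Control gave 0.08 with overlapping arrays.

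Nfil3, a repressor at D-boxes, and Rora, an activator at ROREs, were not DE in any diet comparison of liver. The Nfil3 Control arrays read 7.99, 7.89 and 7.88, the HCD arrays 7.69, 7.63 and 7.41 and the HCD+Gl-2 arrays 7.60, 7.54 and 7.78. Both groups lay below Control, with log2 fold changes of -0.34 (adjusted p 0.13) and -0.28 (adjusted p 0.201) that missed the adjusted threshold, while HCD+Gl-1 (8.14, 7.85 and 7.74) overlapped Control. Rora was the steadiest of the 7 in liver, with group means from 9.01 to 9.12 and 95% intervals of its differences from Control that ran from -0.26 to 0.32.

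Over the 8 diet comparisons of liver, the 7 genes gave 5 DE calls, all of them lower and all of them in Npas2 or Arntl. For HCD against Control 0 of 7 were DE by limma (4 at an unadjusted p under 0.05), beside 0.245% of all genes. For HCD+Gl-1 against HCD it was 0 of 7 (3 unadjusted) beside 0.163%, and for HCD+Sim against HCD 0 of 7 (1 unadjusted) beside 0.258%. Gl-2 against HCD gave 1 of 7 beside 0.303%. Against Control the counts were 1 of 7 beside 0.322% for HCD+Gl-1, 2 of 7 beside 0.584% for HCD+Gl-2 and 1 of 7 beside 0.358% for HCD+Sim. Gl-2 against Gl-1 gave 0 of 7 (4 unadjusted) beside 0.172%. When the fold threshold was dropped, the genes past the test in these comparisons, all lower, were 1 for HCD against Control (1.34% of all genes), 1 for Gl-1 against HCD (2.48%), 2 for Gl-2 against HCD (1.7%) and 0 for simvastatin against HCD (1.1%). Against Control there were 2 for HCD+Gl-1 (3.58%), 3 for HCD+Gl-2 (2.86%) and 2 for HCD+Sim (1.54%), and 1 for Gl-2 against Gl-1 (3.94%). The median log2 fold change of the 7 genes was -0.28 for HCD+Gl-2 against Control, beside -0.01 over all genes.

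**Figure D2:**
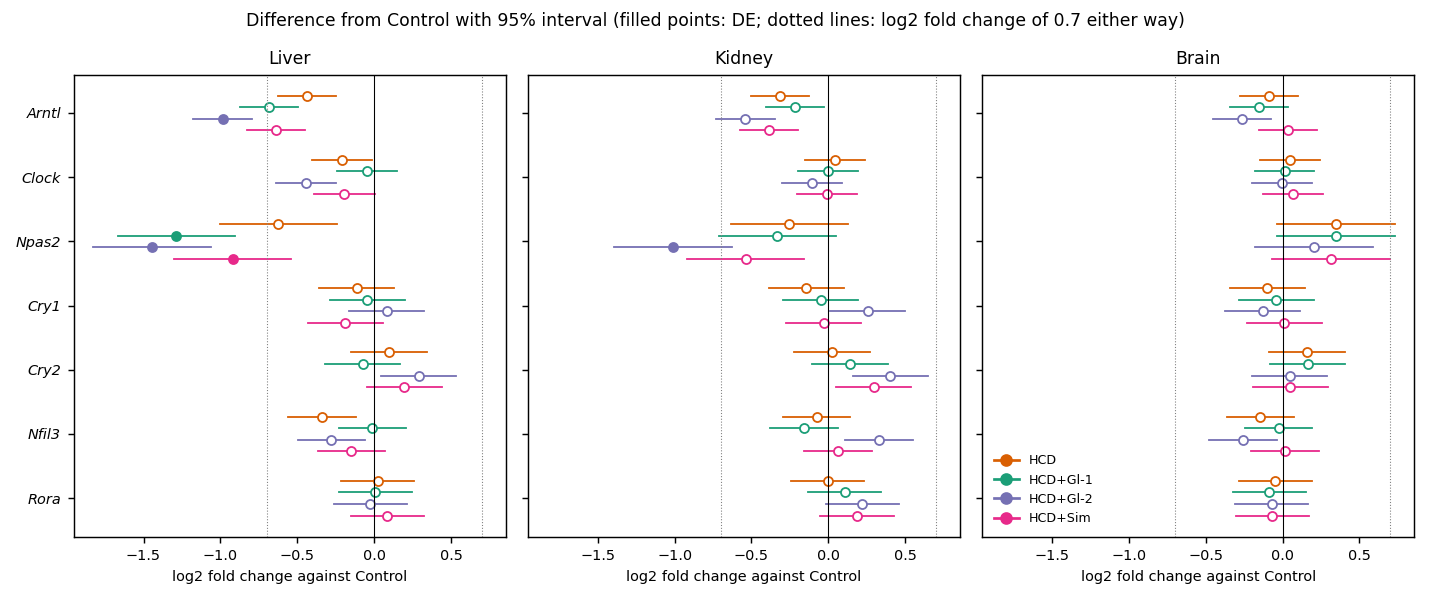
Log2 fold change of each gene against Control (horizontal axis) for the 4 cholesterol diets (colours) in liver, kidney and brain, with 95% intervals from the limma fit and filled points for DE. Npas2 and Arntl carry all filled points, 4 of them in liver, down to -1.44, and 1 in kidney at -1.01, and no point of brain is filled.

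In kidney Npas2 fell under HCD+Gl-2, and the arrays of the 3 other cholesterol diets also lay below those of Control without passing the test. Its Control arrays read 7.81, 7.86 and 7.74, the HCD arrays 7.61, 7.53 and 7.51 and the HCD+Gl-1 arrays 7.45, 7.41 and 7.55. The HCD+Sim arrays read 7.35, 7.35 and 7.10, and the HCD+Gl-2 arrays 6.84, 6.62 and 6.91, below all 12 others. Against Control it fell by 1.01 (SE 0.19, adjusted p 0.00162, a 2.02-fold lower level), and it was DE with each array left out (-1.07 to -0.93). Against HCD it was -0.76 (adjusted p 0.0321), a call that was lost without any 1 of the 6 arrays compared (-0.82 to -0.67), although with the kidney arrays alone in the fit the adjusted p was 5.74e-05. The difference from HCD+Gl-1 was -0.68 (adjusted p 0.136) and that of HCD+Sim from Control -0.54 (adjusted p 0.529). With the kidney arrays alone these had adjusted p of 0.000321 and 0.0127, without reaching the fold threshold.

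Arntl followed in kidney at a smaller size. Its Control arrays read 6.59, 6.62 and 6.57 and its HCD+Gl-2 arrays 5.97, 6.11 and 6.09, all below the 12 arrays of the other groups, of which those of HCD+Sim (6.13, 6.35 and 6.16) came closest. The log2 fold change of HCD+Gl-2 against Control was -0.54 (adjusted p 0.000616), short of the fold threshold, and with each array left out it stayed between -0.56 and -0.50. HCD (-0.32, adjusted p 0.314), HCD+Gl-1 (-0.21, adjusted p 1) and HCD+Sim (-0.39, adjusted p 0.0944) also lay below Control with no overlap of arrays and did not pass the test. Clock in kidney was -0.11 for HCD+Gl-2 against Control (95% interval -0.30 to 0.09).

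The arrays of Cry1, Cry2, Nfil3 and Rora in kidney HCD+Gl-2 all lay above those of Control. With all arrays in the fit, none of these differences from Control passed the adjusted p. How often the arrays of these groups separate in this way over all genes was not counted. Nfil3 read 6.91, 6.55 and 6.65 against 6.32, 6.37 and 6.45 in Control and 6.40, 6.05 and 6.20 in HCD+Gl-1. With all arrays in the fit Nfil3 passed the adjusted p against HCD+Gl-1, by 0.49 (adjusted p 0.0238), and the other 3 genes in no diet comparison of kidney. That call was lost without HCD+Gl-1 array B (0.40, adjusted p 0.347) or C (0.48, 0.072) and without HCD+Gl-2 array A (0.38, 0.309) or C (0.51, 0.0649). Against HCD, Nfil3 missed the adjusted p with all arrays but had 0.0341 without HCD+Gl-2 array B and 0.0313 with the pool letter as a replicate block. Cry2 read 7.80, 7.84 and 7.74 under HCD+Gl-2 and 7.32, 7.39 and 7.46 in Control, a difference of 0.40 (adjusted p 0.125). With the kidney arrays alone in the fit, Cry2 passed the adjusted p against Control (0.00394) and against HCD (0.38 on the log2 scale, adjusted p 0.0045), and Cry1 against HCD (0.40, adjusted p 0.0227), all short of the fold threshold. For Cry1 the difference from Control was 0.26 (adjusted p 0.538) and for Rora 0.22 (adjusted p 0.635).

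The kidney counts were 1 of 7 DE for HCD+Gl-2 against HCD, beside 0.335% of all genes, and 1 of 7 for HCD+Gl-2 against Control, beside 0.217%, both Npas2. In the other 6 comparisons limma called 0 of 7. They were HCD against Control (0.0408% of all genes), Gl-1 and simvastatin against HCD (0.131% and 0.14%), the same 2 groups against Control (0.00906% and 0.0317%) and Gl-2 against Gl-1 (0.181%). At an unadjusted p under 0.05 the same 6 gave 1, 0, 1, 1, 3 and 5 of 7. By the adjusted p alone, 2 of 7 were lower in HCD+Gl-2 against Control (0.874% of all genes) and 1 was higher in HCD+Gl-2 against HCD+Gl-1 (0.394%).

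In brain, limma called none of the 7 genes in any of the 8 diet comparisons. At an unadjusted p under 0.05 there were 2 of 7 for HCD+Gl-2 against Control, 1 for HCD+Gl-2 against HCD+Gl-1 and 0 in the other 6. The share of all genes called was 0.0317% for HCD against Control, 0.00906% for HCD+Gl-1, 0.0226% for HCD+Gl-2 and 0% for HCD+Sim against HCD, 0.00453%, 0.186% and 0.00906% for the same 3 groups against Control, and 0.00906% for HCD+Gl-2 against HCD+Gl-1. Arntl group means ran from 7.68 ± 0.10 in HCD+Gl-2 to 7.98 ± 0.16 in HCD+Sim, and the HCD+Gl-2 value against Control was -0.26 (adjusted p 0.154, 95% interval -0.45 to -0.07).

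Npas2 in brain varied more between the 3 Control arrays than between diets. Control arrays A, B and C read 9.41, 8.83 and 10.27, while the 12 arrays of the other groups lay between 9.52 and 9.96. The order of the 3 Control arrays was that of the striatum markers (8.48, 7.84 and 9.53). Rora, which is abundant in the cerebellum, read 9.52, 9.70 and 8.86 on the same arrays, in the order of the cerebellum markers (9.76, 10.29 and 6.51), and 9.11 to 9.43 on the other 12. By limma none of the 10 striatum or 8 cerebellum markers was DE in a diet comparison of brain, but for HCD+Gl-2 against Control 5 and 8 of them had an unadjusted p under 0.05. Of 8 olfactory bulb markers 2 were DE and higher in HCD than in Control, 2 lower in HCD+Gl-2 than in HCD and 1 lower in HCD+Gl-2 than in Control, and of 8 hypothalamus markers 1 was higher in HCD+Gl-2 than in Control. Over the 12 arrays outside Control the markers had a mean log2 level of 8.51 to 9.26 for striatum and 6.88 to 9.33 for cerebellum. The part of these markers in the levels of Npas2 and Rora was not tested. Against all 3 Control arrays Npas2 was higher by 0.35 under HCD (adjusted p 0.833). Without array C the difference was 0.73 (adjusted p 0.00382) and DE, and with array C as the only Control it was -0.42 (adjusted p 0.532), so its sign depended on which Control arrays were used. With a single Control array the fit assumes that it varies like the arrays of the other groups. Rora, whose diet differences in brain were DE in none of the fits, passed the adjusted p without array C, with -0.34 for HCD+Gl-1 (0.0304), -0.32 for HCD+Gl-2 (0.0302) and -0.32 for HCD+Sim (0.0403) against Control. With array C as the only Control its sign turned, to 0.42 for HCD+Gl-1 (adjusted p 0.108) and 0.43 for HCD+Gl-2 (0.0941).

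**Figure D3:**
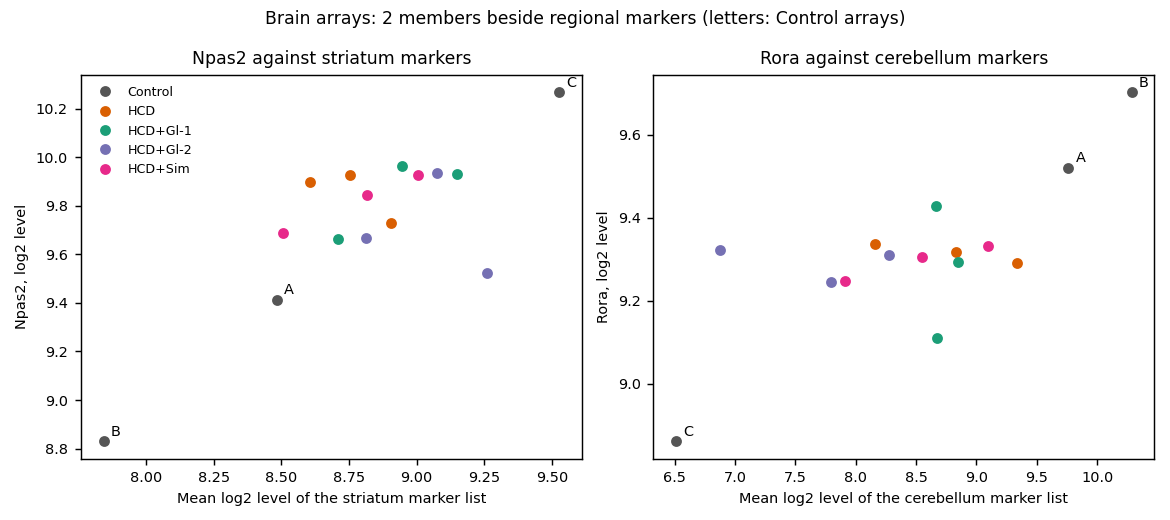
Log2 level of Npas2 against the mean log2 level of 10 striatum markers (left) and of Rora against that of 8 cerebellum markers (right) on the 15 brain arrays, coloured by diet group, with letters on the Control arrays. Control arrays B and C lie at the 2 ends of both plots, at 8.83 and 10.27 for Npas2 and at 9.70 and 8.86 for Rora.

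Whether the response of a gene differed between tissues was tested as the difference of its 2 differences from Control. Liver minus kidney gave 0 of 7 DE by limma for HCD (0.149% of all genes), for the extracts Gl-1 (0.118%) and Gl-2 (0.38%) and for simvastatin (0.254%), with 0, 2, 3 and 0 of 7 at an unadjusted p under 0.05. For HCD+Gl-1 the Npas2 difference was nevertheless large, at -0.95 (95% interval -1.50 to -0.41, adjusted p 0.13), and it was DE with the liver and kidney arrays alone (adjusted p 0.0257) and without the brain Control arrays (0.0111). For HCD+Gl-2 it was -0.43 (95% interval -0.97 to 0.11), which does not show that liver and kidney responded alike. Nfil3 was the 1 of 7 genes past the adjusted p alone there (0.743% of all genes), lying below Control in liver and above it in kidney, with a difference of -0.61 (adjusted p 0.0472). That adjusted p was 0.0759 with the liver and kidney arrays alone, and between 0.0321 and 0.183 with each array left out.

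Liver minus brain gave 0 of 7 for HCD (0.19% of all genes, 2 unadjusted), 1 of 7 for HCD+Gl-1 (0.276%), 2 of 7 for HCD+Gl-2 (0.738%) and 1 of 7 for HCD+Sim (0.258%). For Npas2 the log2 difference from Control in liver minus that in brain was -1.64 under HCD+Gl-1 (adjusted p 0.000812), -1.65 under HCD+Gl-2 (0.000331) and -1.24 under HCD+Sim (0.0189). For Arntl it was -0.72 under HCD+Gl-2 (adjusted p 0.00147). Without brain Control array C the 3 Npas2 differences were -2.02, -2.03 and -1.62, and with that array as the only brain Control they were -0.87 (adjusted p 0.0481), -0.88 (0.0389) and -0.47 (0.439), all limma and with the spread of that arm taken from the other groups. The Arntl difference under HCD+Gl-2 was -0.79 and -0.60 in the same 2 fits, the second short of the fold threshold (adjusted p 0.0379). With only the 12 arrays of each comparison in the fit, none of these 4 differences passed the test (adjusted p 0.141, 0.0966 and 0.372 for Npas2 and 0.0664 for Arntl). With each array left out, the Npas2 difference under HCD+Sim ran from -1.62 to -0.90 and was no longer DE without brain Control array A or B, brain HCD+Sim array A or B, liver Control array A or liver HCD+Sim array C. The Arntl difference ran from -0.79 to -0.63 and fell short of the fold threshold without brain Control array B, brain HCD+Gl-2 array C or liver HCD+Gl-2 array B.

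Kidney minus brain gave 0 of 7 for HCD (0.122%, 1 unadjusted), HCD+Gl-1 (0.00453%, 1 unadjusted) and HCD+Sim (0.0226%, 2 unadjusted) and 1 of 7 for HCD+Gl-2 (0.281%). The called gene was Npas2, with a difference of -1.22 (adjusted p 0.0218) that was no longer DE with brain Control array C alone (-0.45, adjusted p 0.532) or with only the 12 arrays compared in the fit (adjusted p 0.246). Without array C it was -1.60 and DE, while it was not DE without brain Control array A or B, brain HCD+Gl-2 array A, kidney Control array A or B or kidney HCD+Gl-2 array B (-1.60 to -0.88 over the arrays left out).

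Across tissues, on the mean of the 5 diet groups, Npas2 differed most. Its 15 arrays lay between 8.83 and 10.27 in brain, between 6.62 and 7.86 in kidney and between 5.69 and 7.55 in liver. The brain level was 8.99-fold above that of liver (log2 difference -3.17 for liver against brain, adjusted p 2.06e-30) and 5.17-fold above that of kidney (-2.37, adjusted p 5.59e-26). In the Control groups alone these log2 differences were -2.07 (adjusted p 1.32e-12) and -1.70 (2.59e-10). Liver lay below kidney by 0.80 (adjusted p 6.79e-11), and in the Control groups alone this difference was -0.37 (adjusted p 0.104). Arntl was also highest in brain, 2.35-fold above liver (adjusted p 9.91e-27) and 2.93-fold above kidney (3.65e-30), with liver above kidney by 0.32.

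Nfil3 had a different order, with liver (7.41 to 8.14 over 15 arrays) 2.56-fold above kidney (6.05 to 6.91, adjusted p 1.39e-25) and 1.92-fold above brain (6.41 to 7.05, adjusted p 1.51e-20). The cryptochromes were lowest in kidney, where Cry2 was 2.4-fold below brain (adjusted p 3.67e-23) and 1.69-fold below liver (1.2e-15) and Cry1 1.66-fold below brain (1.22e-15). Clock and Rora differed by under 0.4 between any 2 tissues, and liver and kidney were the 1 pair of neighbours not told apart in Clock (log2 difference 0.09, 95% interval 0.00 to 0.18). By the DE rule 3 of 7 genes were called for liver against kidney, 3 for liver against brain and 4 for kidney against brain, beside 16.5%, 32.4% and 30% of all genes, so tissue differences were common in the whole table. Differences between tissues in bulk RNA cannot tell fewer expressing cells from less RNA per cell.

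The genes whose values ran most like those of each member were found from log2 values centred on the gene's mean in each tissue, by the root mean square difference over the 45 arrays. All arrays are used in each such value, so it describes them and is no test. For Npas2 the nearest of all genes was Arntl (0.28, with Npas2 itself varying by 0.42 about its tissue means), followed by Asap2, Acsl5, Slc16a6 and Cldn1 (0.30 to 0.33). For Arntl, which varied by 0.24, the nearest were Slc16a6, Tlcd2, Slc25a22, Fmn1 and Dtx4 (0.16 to 0.19). With the sign turned, the 3 genes nearest to Arntl out of the whole table were Per3 (0.14), Dbp (0.16) and Per2 (0.17), all 3 of them clock genes, of which Per3 and Dbp lay closer than any gene that ran the same way. For Npas2 turned they were Coq10b (0.28), Per3 (0.29) and Gdap10 (0.29).

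Clock was nearest to Caprin1, Ept1, Fbxo8, Tmed7 and Abce1 (0.08 each), against its own variation of 0.14, and turned to Ttc7, Rny3 and Klf13 (0.10). For Cry2 the nearest were Sirt3, Gpx4, Eif3f, Clcn2 and Cox4i1 (0.12 to 0.13, own variation 0.18), and Clock was the second nearest with the sign turned (0.13), between Caprin1 and Zfp207. These values include liver HCD+Gl-1 array C, where Clock read 10.06, above its pools A and B, and Cry2 7.69, below them. The part of that array in the nearness of Clock and Cry2 was not tested. The values for Cry1 (Fam118b, Zbtb21, Clip1, Dock9 and Elf2, at 0.13, and turned Atat1, Apbb1ip and Txnl4b) and Nfil3 (Mrpl15, Lep, Nedd9, Igbp1 and Tet2, at 0.15 to 0.16, and turned Mlxipl, LOC102638515 and 1700042B14Rik) were close to the genes' own variation of 0.16 and 0.18. Rora, varying by 0.14, was nearest to Dusp16, Aplp2, Msi2, Itm2b and Ggact (0.09 to 0.10) and turned to Brk1, Tacc1 and Zfp710.

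**Figure D4:**
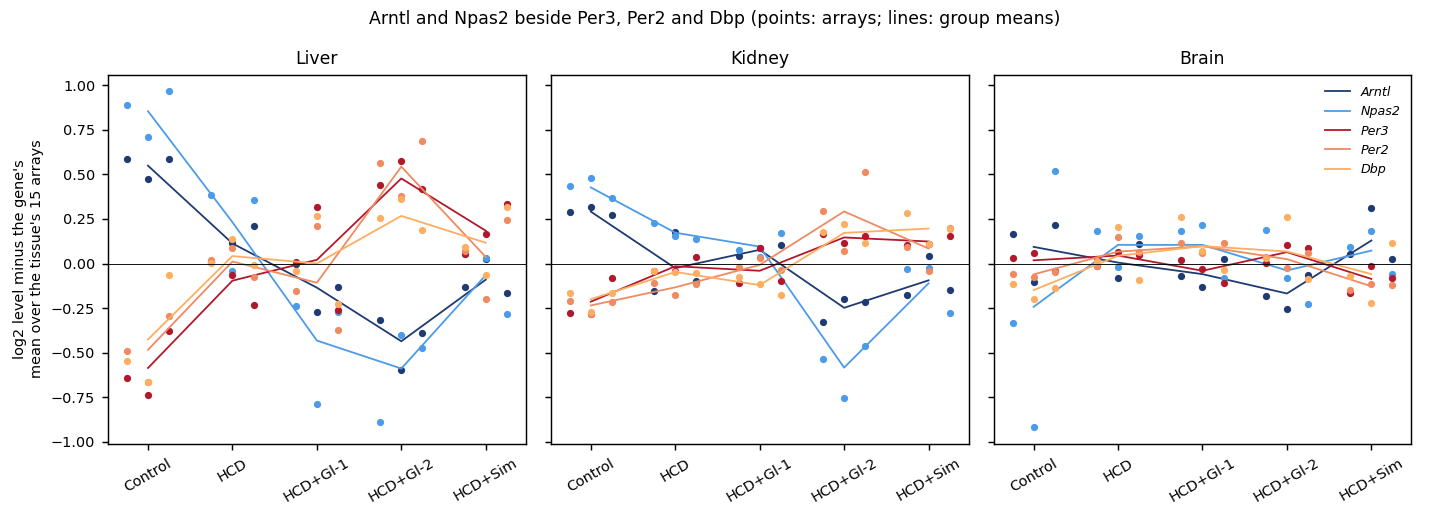
Log2 level of Arntl and Npas2 and of Per3, Per2 and Dbp on each array, minus the gene's mean over the 15 arrays of the tissue (vertical axis), by diet group (horizontal axis), with lines through group means. In liver Arntl and Npas2 are highest in Control and lowest in HCD+Gl-2 while Per3, for one, is lowest in Control (7.35 to 7.71) and highest in HCD+Gl-2 (8.51 to 8.66).

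The rest of the clock pathway was described with 3 lists. Of the 11 repressor and PAR bZIP genes (Per1 to Per3, Nr1d1, Nr1d2, Dbp, Tef, Hlf, Bhlhe40, Bhlhe41 and Ciart), 6 rose in liver HCD+Gl-2 against Control, none fell and 5 were not DE, with a median log2 fold change of 0.71 beside -0.01 over all genes. The largest were Ciart, a repressor of the BMAL1 pair (1.57, adjusted p 2.37e-07), and the period genes Per3 (1.06, adjusted p 1.06e-09), Per2 (1.03, 3.15e-08) and Per1 (0.92, 8.25e-05). Per3 read 7.44, 7.35 and 7.71 on the Control arrays and 8.53, 8.66 and 8.51 on those of HCD+Gl-2, with no overlap, where Arntl had its highest and lowest values. Dbp had a difference of 0.69 (adjusted p 0.000192), just under the fold threshold. The REV-ERB genes, whose proteins act on Arntl and Npas2, had 0.11 for Nr1d1 (adjusted p 0.622) and 0.26 for Nr1d2, whose adjusted p of 0.05 after rounding lay just above the threshold.

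With each array left out in turn the count was 4 to 7 of 11. Under HCD+Sim against Control 3 of the 11 rose (Bhlhe41 0.93, Per3 0.77 and Ciart 0.75; list median 0.50) and under HCD+Gl-1 1 did (Ciart 0.91; list median 0.38). The first count was 0 without liver Control array B and 1 without HCD+Sim array C, and the second was 0 without HCD+Gl-1 array B and 3 without Control array C or HCD+Gl-1 array C. In liver HCD alone against Control, all 11 were higher (list median 0.34), with 0 DE and 7 at an unadjusted p under 0.05. Against HCD, limma called 0 of 11 under Gl-1 (list median -0.04, 3 unadjusted) and 0 under simvastatin (0.07, 2 unadjusted). Under Gl-2 against HCD 1 of the 11 rose (list median 0.35). In kidney HCD+Gl-2 against Control, where Npas2 was DE, 2 of 11 rose, Ciart (0.72) and Bhlhe40 (0.71), with a list median of 0.37 beside 0.00 over all genes. That count was 0 without kidney Control array B or HCD+Gl-2 array A or C, and 1 without Control array A or C. In brain the median was 0.05 and limma called none of the 11 in the same comparison (0 at an unadjusted p under 0.05). Of 14 other clock components (Arntl2, the casein kinase and F-box genes and others) limma called none in a diet comparison of any tissue. For HCD+Gl-2 against Control in liver, kidney and brain, 1, 2 and 2 of them had an unadjusted p under 0.05, with medians of 0.03, 0.02 and 0.06.

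Of 16 genes that the liver clock drives, 6 rose and 1 fell in liver HCD+Gl-2 against Control (list median 0.49). Among those that rose were Usp2, a ubiquitin protease (1.34), Wee1, a cell cycle kinase (1.09), and Cyp7a1, the rate-limiting enzyme of bile acid synthesis (1.05), and Elovl3, a fatty acid elongase, was the gene that fell (-0.77, adjusted p 0.00475). Elovl3 was no longer DE without Control array A (-0.66, adjusted p 0.0563) or B (-0.63, 0.0726) or without HCD+Gl-2 array B (-0.64, 0.0454). Usp2 and Wee1 were also DE in the 2 other treated groups against Control, at 0.75 and 0.74 for HCD+Gl-1 and 0.74 and 0.77 for HCD+Sim, but neither reached the fold threshold in these groups without liver Control array B (0.54 to 0.62), without HCD+Gl-1 array B (0.60 and 0.63) or without HCD+Sim array C (0.65 and 0.68), and Wee1 did not without HCD+Gl-1 array A (0.69). In kidney HCD+Gl-2 1 of the 16 rose, Noct (listed as Ccrn4l, 0.87), which encodes nocturnin. In liver, HCD alone against Control had 1 of the 16 that rose (list median 0.165). Against HCD in liver, 3 of the 16 rose under Gl-2 (list median 0.38) and 0 under Gl-1 (0.10). Under simvastatin 0 rose and 1 fell (list median 0.16).

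Immediate early genes, which cells switch on within minutes of a stimulus, also differed in HCD+Gl-2. Of 14 such genes 11 rose in liver (median 1.15) and 13 in kidney (median 1.49) against Control, led in kidney by Egr1 (4.01) and Nr4a1 (3.56) and in liver by Egr1 (2.36) and Jun (1.96). Without liver HCD+Gl-2 array C the liver count was 6 (median 0.83) and without array B it was 12 (median 1.55). Of 12 glucocorticoid-induced genes, Per1 among them, 2 rose in liver and 1 in kidney (medians 0.03 and 0.16). The mean log2 level of the immediate early list was 8.61, 7.40 and 9.01 on liver HCD+Gl-2 arrays A, B and C, and 7.16 to 7.66 on the other 12 liver arrays. Array B, where this list was near the other groups, had the lowest Arntl value of the tissue (6.02), but for Npas2 it was the highest of the 3 arrays (6.18) and array A the lowest (5.69). In kidney HCD+Gl-2 the list was at 9.03, 8.66 and 9.13, against 7.09 to 7.46 on the other 12 arrays. The part of these genes in the clock values was not tested.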

How the data were processed

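The deposited table holds log2 expression values of 45 arrays, which the authors obtained from signal intensities by RMA background correction, quantile normalization with oligo and ComBat, keeping 1 probe set per gene. The batches given to ComBat are not given in the sources used here, and an adjustment for batches can shift differences between groups. Tissue, diet and pool were taken from the sample labels. With limma 3.58.1 in R 4.3.3, 15 group means were fitted to all 45 arrays (prior degrees of freedom 7.34, residual 30), with Benjamini-Hochberg adjustment over 22080 genes within each comparison. DE means a log2 difference beyond 0.7 in either direction with adjusted p no higher than 0.05. Standard errors and 95% intervals come from this fit. It was tested on simulated data with independent arrays, which does not cover arrays that share mice. With 3 arrays against 3, exact two-sided permutation cannot give a p under 0.1. The 7 genes and the gene lists were chosen with earlier results of these data known. Named genes are the 7, list genes that are DE (at most 4 a list and comparison), genes that a statement on markers turns on, and the 5 nearest and 3 nearest opposite genes of each of the 7. Per2, Per3, Dbp, Nr1d1 and Nr1d2 were given also where this rule did not name them, after their values were seen. Some listed genes are not reported here by name. Promoters are from RefSeq. Plots were made in Python 3.11.15 (matplotlib 3.10.9). Results were recomputed in fits of the compared tissues or groups, with pool C left out, with pool letters as blocks, dim genes (mean below the 25th percentile) left out, renewed quantile normalization within tissues, trend and robust moderation, no fold threshold, Control groups only for tissue levels, and each array left out. Fits without brain, without its Control arrays or with array C as its only Control, and the list counts without single arrays, were chosen after seeing the data. The number of arrays limits the precision.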

Additional observations from a re-analysis of the deposited data

Results flagged for a closer look

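In 8 cases the difference between tissues in the response to a diet passed its own test with all arrays in the fit (limma, adjusted p of at most 0.05). For Npas2 the difference from Control in liver minus that in brain was -1.64 under HCD+Gl-1, -1.65 under HCD+Gl-2 and -1.24 under HCD+Sim, and kidney minus brain gave -1.22 under HCD+Gl-2. For Arntl, liver minus brain gave -0.53 under HCD+Gl-1 (adjusted p 0.0346), -0.72 under HCD+Gl-2 and -0.68 under HCD+Sim (adjusted p 0.00737), the first and last short of the fold threshold. With only the 12 arrays compared in the fit these 2 had adjusted p of 0.281 and 0.17, with brain Control array C alone 0.223 and 0.0893, and the first was lost in 8 of 12 fits with 1 array left out (up to 0.122). For Nfil3, liver minus kidney under HCD+Gl-2 gave -0.61. The 7 differences against brain use the brain Control arrays, whose regional markers differ between arrays. Their part in these values was not tested.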

How the results depend on the processing

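No direction turned among the called results. Leaving out dim genes, trend and robust moderation, and the pool letter as a replicate block changed no call of the 7 genes (273 of 273 each). With the block, liver HCD+Gl-2 against Control kept 2 DE genes and Npas2 had -1.44. The letters were not taken as pairs, since in only 2 of 24 diet comparisons did every letter correlate over 0.1 (range -0.382 to 0.421) and in 0 of 15 tissue pairs. Elsewhere the number of DE genes among the 7 changed as follows, and the cause was not tested except that a lower threshold admits more genes. With no fold threshold it was 1 for liver HCD against Control, 1 for HCD+Gl-1 and 2 for HCD+Gl-2 against HCD, 3 for HCD+Gl-2 and 2 each for HCD+Gl-1 and HCD+Sim against Control, and 1 for Gl-2 against Gl-1. In kidney it was then 2 for HCD+Gl-2 against Control and 1 against HCD+Gl-1. It was 1 for liver minus kidney under HCD+Gl-2 (0.743% of all genes). For liver minus brain it was 2 under HCD+Gl-1 (1.15%) and 2 under HCD+Sim (0.489%). Tissue levels gave 6, 7 and 7 for liver against kidney, liver against brain and kidney against brain. There 76.6%, 88% and 77% of all genes passed, so most of the whole table passed as well. The share over all genes is not given for the refits that follow, so their counts are not read as a result about the 7 genes. With pools A and B only, brain had 1 each for HCD, HCD+Gl-1 and HCD+Sim against Control, liver minus kidney 1 (HCD+Gl-2), liver minus brain 1 (HCD) and 2 (HCD+Sim), and kidney minus brain 1 (HCD+Gl-1), 1 (HCD+Sim) and 2 (HCD+Gl-2). Renewed quantile normalization gave 1 (HCD+Gl-2) and 2 (HCD+Sim) for liver minus brain. With the arrays of the compared tissues only, liver HCD+Gl-2 against HCD had 0, liver minus kidney 1 (HCD+Gl-1) and liver minus brain 0 (HCD+Sim). With the compared groups only the first 2 were also 0 and 1, and liver minus brain had 0 for both extracts and HCD+Sim, and kidney minus brain 0 for HCD+Gl-2. The fits on liver and kidney arrays and without the brain Control arrays gave 1 for liver minus kidney under HCD+Gl-1. Brain Control array C alone gave 1 (HCD+Gl-2) and 0 (HCD+Sim) for liver minus brain and 0 for kidney minus brain under HCD+Gl-2. In the Control groups only, Npas2 in liver against kidney was -0.37 and not DE. Leaving out 1 array at a time, the counts ranged from 0 to 1 for liver HCD+Gl-1 and HCD+Gl-2 against HCD, brain HCD and HCD+Gl-1 against Control, liver minus brain under HCD and kidney minus brain under all 4 diets. They ranged from 1 to 2 for liver HCD+Gl-1 against Control and liver minus brain under HCD+Gl-2, from 0 to 2 for liver minus brain under HCD+Sim, and were 0 throughout for kidney HCD+Gl-2 against HCD. Arrays give no counts, so their number and the mixing of pools limit the precision.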

Other observations

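Because pool C combined the RNA of the other pools, its value should lie between theirs. Of the 105 sets of a member and a group, C lay outside the range of A and B by over 0.2 on the log2 scale in 12, the farthest being Npas2 (0.85) and Rora (0.66) in brain Control. Over all genes the share outside by over 0.2 ran from 5.43% in kidney HCD to 20.9% in brain Control.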
